A study of Mus musculus with 12 samples.

Results

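The potassium channel genes were taken as every gene whose symbol begins with Kcn, a prefix that covers pore-forming subunits, accessory subunits and 3 noncoding transcripts named after a channel gene. Of 45037 probe sets, 167 named a single gene of this kind, and together they measured 84 of the 18193 genes with a single symbol. The probe set with the highest mean over all 12 arrays stood for its gene. After the 45% of probe sets with the lowest mean were set aside, 63 of the 84 genes and 115 of the 167 probe sets were tested, and the other 21 genes are described by their values alone.

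Each array measured RNA of medial prefrontal cortex, pooled from 3 adult male mice aged 12 weeks. The study says that its prefrontal dissections take in adjacent motor cortex. The controls were of the stock B6129SF2/J, and the Fyn-null animals, B6;129S7-Fyntm1Sor/J, carry a constitutive null allele of the tyrosine kinase gene Fyn. Every mouse was first accustomed to saline injections, then given either saline or ethanol at 3 g/kg into the peritoneum, and the tissue was taken 4 h later. The 4 groups of genotype and treatment had 3 pools each. The genotypes are separate stocks, so loss of Fyn and other stock differences cannot be told apart. Values are on the log2 scale of robust multi-array averaging (RMA), and a gene was called where its limma adjusted p over all probe sets tested was under 0.05.

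Potassium channels let potassium leave the cell and so set the resting potential, end the action potential and limit repetitive firing. Voltage-gated (Kv) channels, built from the Kcna to Kcnd, Kcnq and Kcnh genes, open on depolarisation, whereas the Kcnf, Kcng, Kcns and Kcnv genes encode modulatory subunits that form no channel of their own and join Kv partners. The Kcnj genes encode inward rectifiers, among them the G protein-gated channels that ethanol opens, the Kcnk genes encode leak channels, and Kcnma1 with the Kcnmb genes makes the large-conductance calcium-activated channel, another known target of ethanol. In bulk tissue, fewer cells of a type and less RNA per cell cannot be told apart.

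A pair of pools went against their labels for the targeted gene. On the brighter Fyn probe set the pool labelled control saline replicate 2 read 8.74, within the 8.64 to 9.01 of the other Fyn-null pools. Fyn-null saline replicate 4, by its label, read 9.45, within the 9.31 to 9.70 of the other control pools. On the dimmer Fyn probe set the genotypes overlapped beyond this pair, with control saline replicate 1 at 7.65 and Fyn-null ethanol replicate 1 at 7.81. There control saline replicate 2 read 7.53 and Fyn-null saline replicate 4 read 7.75. Both pools in doubt were kept, and results that rest on them are also given without them. Each saline group is then a pool short. A sign of RNA quality moved with treatment. The Gapdh difference between 3' and 5' probe sets was 0.106 to 0.529 in control saline, -0.045 to 0.093 in control ethanol, 0.213 to 0.333 in Fyn-null saline and 0.015 to 0.105 in Fyn-null ethanol, so the treatments came within 0.001 of each other without overlap. The mean of this and the same difference for Actb overlapped, at 0.388 to 0.627 under ethanol and 0.541 to 0.992 under saline. Member genes called with ethanol are therefore also given with that mean as a covariate (the 3' to 5' covariate), which took the calls over all probe sets from 1686 to 27. Of the markers expected in cortex, 6 of 7 pyramidal neuron, 8 of 8 interneuron and 7 of 7 astrocyte genes were above the filter, and 5 of 9 striatal genes were too.

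The promoters of 5 genes are shown because the ethanol results (Kcna2, Kcna5, Kcna6, Kcnq1ot1) and the genotype results (Kcnj9) turn on them. They are RefSeq sequences of build GRCm38.p6, 5' to 3' on the gene's strand, from 250 bases before to 50 bases after the start. Capitals mark GC boxes (GGGCGG) and half-sites of the cyclic AMP response element (TGACG), on either strand. The windows are chr3:107101317-107101616 on the plus strand for Kcna2 and, on the minus strand, chr6:126535506-126535805 for Kcna5, chr6:126740625-126740924 for Kcna6, chr7:143296498-143296797 for Kcnq1ot1 and chr1:172329273-172329572 for Kcnj9.
Kcna2: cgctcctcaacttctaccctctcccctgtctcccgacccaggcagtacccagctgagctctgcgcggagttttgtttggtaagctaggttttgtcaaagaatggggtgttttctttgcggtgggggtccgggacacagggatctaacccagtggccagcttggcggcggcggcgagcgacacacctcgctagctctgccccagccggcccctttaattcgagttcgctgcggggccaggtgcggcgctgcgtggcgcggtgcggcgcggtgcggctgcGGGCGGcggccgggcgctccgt
Kcna5: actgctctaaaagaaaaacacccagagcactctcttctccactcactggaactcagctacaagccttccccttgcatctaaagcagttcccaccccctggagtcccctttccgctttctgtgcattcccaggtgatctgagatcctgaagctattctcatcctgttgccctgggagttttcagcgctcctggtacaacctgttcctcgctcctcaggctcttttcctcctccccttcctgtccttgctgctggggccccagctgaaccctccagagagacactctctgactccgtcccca
Kcna6: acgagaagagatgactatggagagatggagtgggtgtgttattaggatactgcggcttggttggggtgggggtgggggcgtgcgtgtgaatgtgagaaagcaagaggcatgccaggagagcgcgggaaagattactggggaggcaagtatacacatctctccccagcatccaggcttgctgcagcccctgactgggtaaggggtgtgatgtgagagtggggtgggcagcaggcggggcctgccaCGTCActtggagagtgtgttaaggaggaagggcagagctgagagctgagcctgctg
Kcnq1ot1: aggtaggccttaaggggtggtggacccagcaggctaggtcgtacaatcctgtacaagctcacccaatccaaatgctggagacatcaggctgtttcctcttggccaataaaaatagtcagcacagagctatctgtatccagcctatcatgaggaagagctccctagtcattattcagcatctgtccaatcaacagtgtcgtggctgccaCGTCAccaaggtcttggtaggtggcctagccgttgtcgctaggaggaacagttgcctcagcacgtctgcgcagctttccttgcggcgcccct
Kcnj9: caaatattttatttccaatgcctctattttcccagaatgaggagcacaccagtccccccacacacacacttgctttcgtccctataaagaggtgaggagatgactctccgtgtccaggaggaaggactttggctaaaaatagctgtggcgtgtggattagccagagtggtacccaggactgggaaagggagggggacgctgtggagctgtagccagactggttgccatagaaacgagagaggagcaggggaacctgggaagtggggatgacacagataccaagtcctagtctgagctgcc
Kcna2 held 1 GC box, Kcna6 and Kcnq1ot1 held 1 half-site each, and Kcna5 and Kcnj9 held neither. Of 32851 promoter windows of this length, 35.7% held a GC box and 20.8% a half-site. The full element (TGACGTCA), which contains the half-site, was in none of the 5 and in 1.79% of windows. The letters of the TATA box (TATAAA, left in lower case), anywhere in the window, were in Kcnj9 alone of the 5 and in 13.6% of windows. In Kcnj9 they lay nearer to the first base of the window than to the start. Promoters were listed for 64 of the 84 genes, and Kcnv1 and Kcna1 were not among them.

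The comparison of ethanol with saline over both genotypes asked which channel genes respond to ethanol. Kcnv1 fell 2-fold and the noncoding transcript Kcnq1ot1 fell by 0.33 on the log2 scale. These were the 2 of 63 genes called, both lower, or 3.17% against 6.69% of all 12323 genes (4.8% lower and 1.89% higher). Before adjustment 16 genes had p under 0.05, or 25.4% against 23.7% of all genes, with 8 above and 8 below saline. Of the 63 genes 39 lay below saline, or 61.9% against 62.5% of all genes. The median log2 difference was -0.0229 against -0.0376 over all genes.

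Kcnv1 encodes a modulatory subunit that is silent alone and alters the Kv channels it joins. On its probe set with the highest mean, 1439333_at, control pools read 8.81, 8.54 and 8.56 under saline and 7.45, 7.75 and 7.94 under ethanol. Fyn-null pools read 8.89, 8.78 and 8.65 under saline and 7.81, 7.60 and 7.69 under ethanol. Every ethanol pool lay below every saline pool of either genotype. The mean fell from 8.64 ± 0.15 to 7.71 ± 0.25 (SD, n = 3) in control mice, a log2 difference of -0.93 (SE 0.13, limma adjusted p = 0.00771). In Fyn-null mice it fell from 8.77 ± 0.12 to 7.70 ± 0.11 (SD, n = 3), a difference of -1.08 (SE 0.13, limma adjusted p = 0.00268). Kcnv1 was the 1 gene of 63 called in either genotype alone, where 1.45% of all genes were called in control and 0.511% in Fyn-null mice.

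The other probe sets of Kcnv1 fell too. On 1453273_at, control pools read 8.01, 8.03 and 8.02 under saline and 7.35, 7.40 and 7.50 under ethanol, and Fyn-null pools 8.07, 7.87 and 7.71 and 7.38, 7.24 and 7.19. The treatments did not overlap, and the difference over both genotypes was -0.61 (SE 0.07, limma adjusted p = 0.00026). On the dimmer 1429741_at, control pools read 6.77, 6.47 and 6.26 under saline and 6.07, 5.52 and 6.01 under ethanol, and Fyn-null pools 6.27, 6.05 and 6.08 and 5.63, 5.41 and 5.34. The difference was -0.65 (SE 0.11, limma adjusted p = 0.00442), with treatments apart within each genotype but overlapping across them. The response of 1439333_at differed between genotypes by -0.15, with a 95% interval of -0.54 to 0.24 (limma adjusted p = 0.992). Without the pools in doubt its difference over both genotypes was -1.06 (limma adjusted p = 0.000331). With the 3' to 5' covariate it was the 1 member still called (limma adjusted p = 0.0386), and the differences in single genotypes, -0.94 and -1.09, were not (limma adjusted p = 0.151 and limma adjusted p = 0.114).

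**Figure D1:**
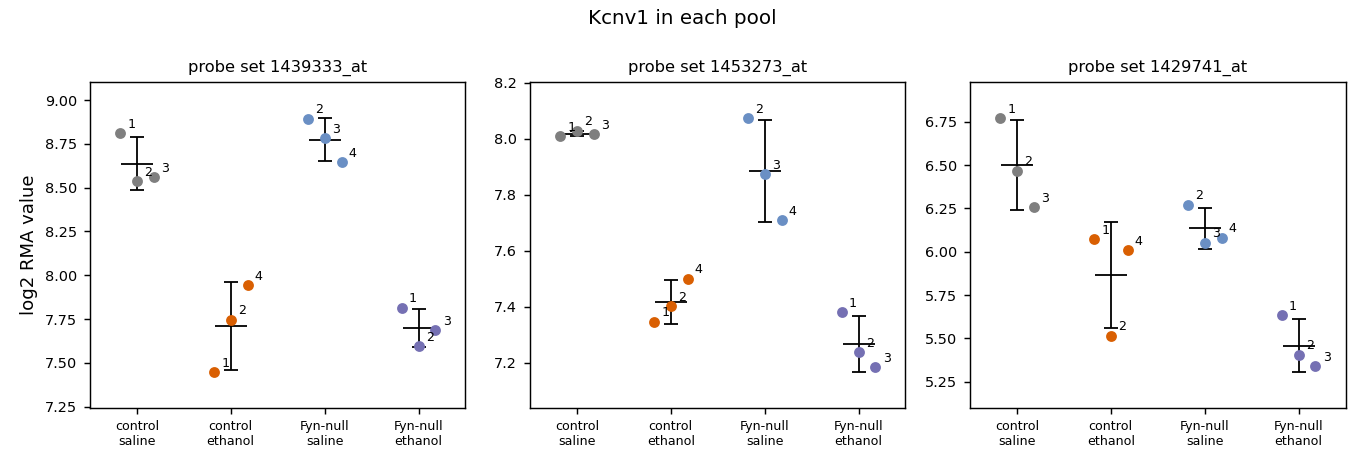
Log2 RMA values of the 3 Kcnv1 probe sets in each pool (points, numbered by replicate) by group, with the mean (bar) and SD (whiskers, n = 3). On 1439333_at the saline pools lie between 8.54 and 8.89 and the ethanol pools between 7.45 and 7.94.

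Kcnq1ot1 is the long antisense transcript within Kcnq1 that silences neighbouring genes on the paternal chromosome. On 1458161_at, control pools read 8.16, 8.26 and 8.31 under saline and 7.69, 7.99 and 7.73 under ethanol, and Fyn-null pools 8.10, 8.39 and 8.13 and 8.04, 7.96 and 7.95. Ethanol pools lay below all saline pools, by a narrow margin in Fyn-null mice. The difference over both genotypes was -0.33 (SE 0.08, limma adjusted p = 0.0218). With the 3' to 5' covariate it was -0.23 and no longer called (limma adjusted p = 0.657). The call was also lost without control saline replicate 3 (limma adjusted p = 0.0507) and without Fyn-null saline replicate 3 (limma adjusted p = 0.055). Averaged over its 3 probe sets the gene differed by -0.21 and was not called (limma adjusted p = 0.114). Of its other probe sets, 1457781_at gave -0.30 (limma adjusted p = 0.0643) and 1442029_at gave 0.00 (limma adjusted p = 0.995). Kcnq1 itself was below the filter, with a mean of 5.07 and overlapping treatments.

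**Figure D2:**
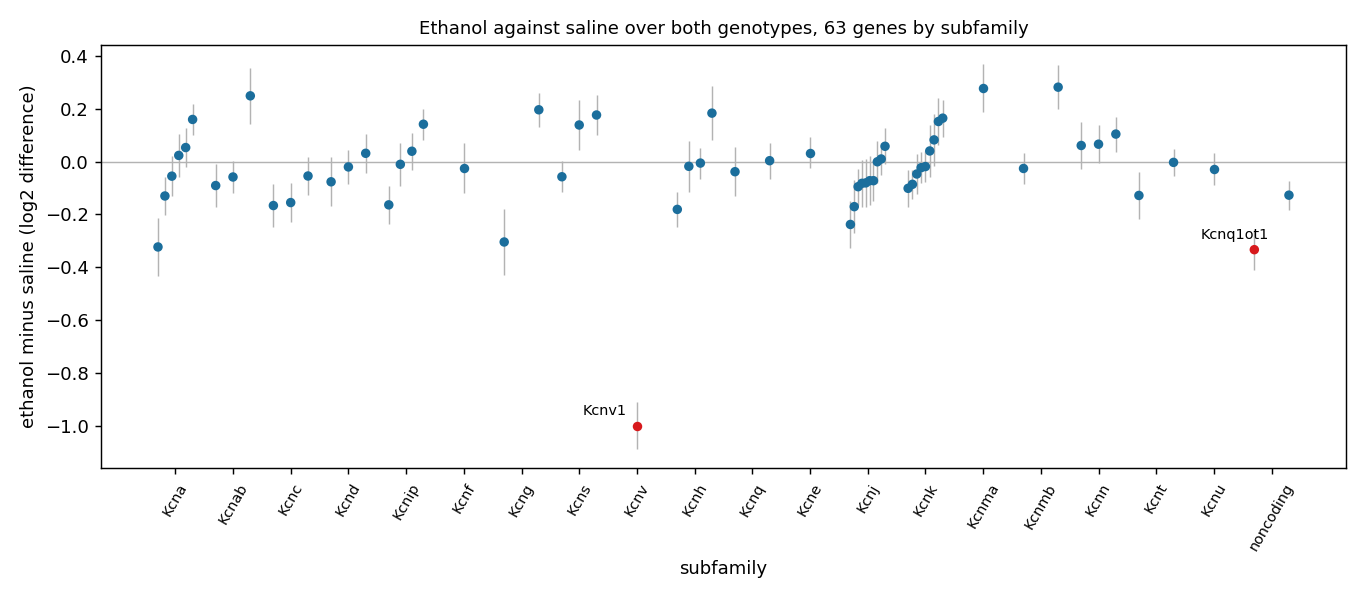
Log2 difference of ethanol minus saline over both genotypes for the 63 genes tested (points, with SE as bars), by subfamily, with called genes in red. Kcnq1ot1 stands at -0.33 and Kcnv1 lies far below the rest, which run from -0.32 to 0.28.

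The Kcna genes encode Kv1 channels, which sit on axons and beside nodes of Ranvier, and their calls differed by probe set. Of the 3 probe sets tested for each gene, 3 lay above saline for Kcna1 and 2 for each of Kcna2 and Kcna6. On the probe sets with the highest mean, 3 of 6 lay above saline and 3 below, with none called. A second Kcna6 probe set, 1421568_at, rose by 0.51 (SE 0.11, limma adjusted p = 0.0219). Control pools read 5.37, 5.13 and 4.95 under saline and 5.65, 5.60 and 6.18 under ethanol, and Fyn-null pools 4.94, 5.03 and 5.30 and 5.38, 5.56 and 5.39. The treatments did not overlap, though they nearly met. The call was lost without Fyn-null ethanol replicate 2 (limma adjusted p = 0.0557), and the Kcna6 probe set with the highest mean, 1456954_at, differed by -0.13 (limma adjusted p = 0.293). The other one tested, 1441049_at, was not called, and its treatments overlapped. Its mean went from 5.16 to 5.38 with ethanol in control mice and from 5.19 to 5.39 in Fyn-null mice.

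Kcna2 and Kcna1 were likewise called on a probe set other than the brightest. The Kcna2 probe set 1422197_at read 6.34, 5.98 and 5.67 under saline and 6.44, 6.57 and 6.64 under ethanol in control mice, and 6.05, 5.65 and 5.69 and 6.16, 6.35 and 5.86 in Fyn-null mice. It rose by 0.44 (SE 0.12, limma adjusted p = 0.0466) with overlapping treatments, while the brightest, 1440759_at, differed by -0.05 (limma adjusted p = 0.7). The other Kcna2 probe set tested, 1439872_at, was not called, and its treatments overlapped. Its mean went from 8.56 to 8.76 with ethanol in control mice and from 8.36 to 8.48 in Fyn-null mice. The Kcna1 probe set 1437230_at read 9.19, 9.10 and 9.13 and 9.37, 9.49 and 9.19 in control mice, and 9.11, 8.65 and 9.19 and 9.48, 9.45 and 9.56 in Fyn-null mice. It rose by 0.36 (SE 0.10, limma adjusted p = 0.0398), also with overlap, and the brightest, 1455785_at, differed by 0.16 (limma adjusted p = 0.123). The other Kcna1 probe set tested, 1417416_at, rose by 0.67 with overlapping treatments and was not called. All 3 Kcna1 probe sets tested thus lay above saline. Leaving out 1 pool at a time, Kcna1 kept its call in 4 of 12 fits and Kcna2 in 3 of 12, and without both pools in doubt neither was called (limma adjusted p = 0.0568 and limma adjusted p = 0.113). With the 3' to 5' covariate the differences were 0.36 for Kcna6 1421568_at, 0.12 for Kcna2 1422197_at and 0.28 for Kcna1 1437230_at, and none was called.

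Kcna5 encodes a channel best known from atrial and vascular muscle, and at a mean of 4.09 it was below the filter. Control pools read 3.33, 3.79 and 3.65 under saline and 4.10, 4.29 and 4.46 under ethanol, and Fyn-null pools 3.95, 3.91 and 3.74 and 4.75, 4.49 and 4.66. Every ethanol pool lay above every saline pool. With no filter on low values the gene was called over both genotypes, at 0.73 (SE 0.09, limma adjusted p = 0.000684), in control mice at 0.69 (limma adjusted p = 0.0328) and in Fyn-null mice at 0.77 (limma adjusted p = 0.0338). With the 3' to 5' covariate and no filter the difference over both genotypes was 0.91 and no longer called (limma adjusted p = 0.055), as in control mice (limma adjusted p = 0.191) and in Fyn-null mice (limma adjusted p = 0.193). Kcna5 was the 1 gene of the 21 below the filter whose treatments did not overlap, and the others differed by -0.11 to 0.14. Kcna4, of a fast inactivating channel, differed by -0.32 (limma adjusted p = 0.0904).

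**Figure D3:**
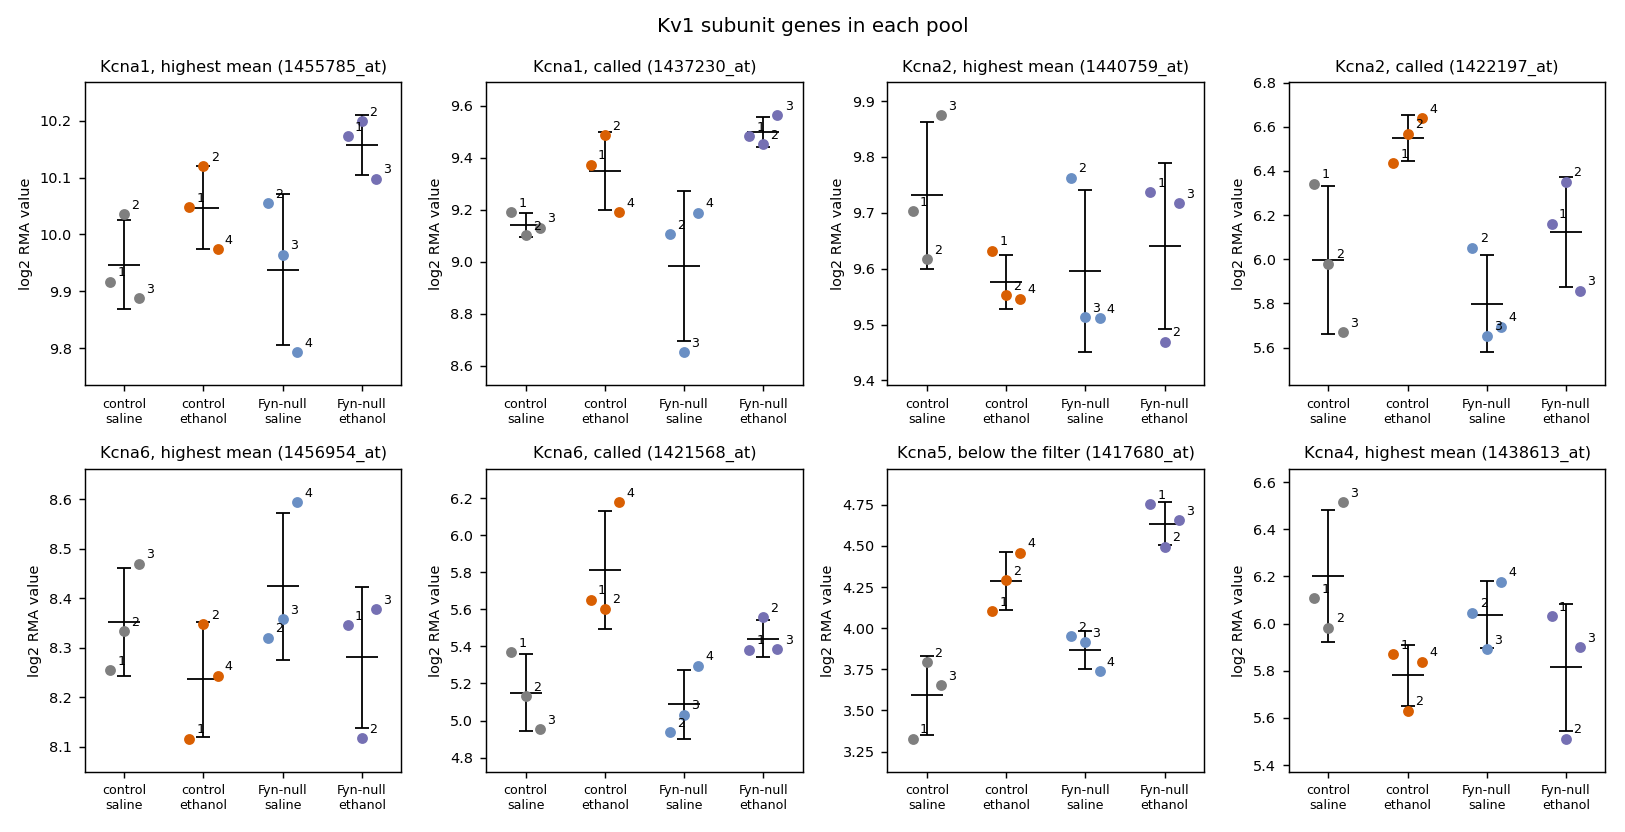
Log2 RMA values of Kcna1, Kcna2 and Kcna6 on the probe set of highest mean and on the called probe set, and of Kcna5 and Kcna4, in each pool (points, numbered by replicate), with the mean (bar) and SD (whiskers, n = 3). Ethanol pools lie above all saline pools for Kcna5 and for the called Kcna6 probe set.

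Probe sets of the same gene often differed in sign. Of 32 genes with more than 1 probe set tested, 11 had all of them on the same side of saline. Of the 63 probe sets that stood for their gene, 24 lay above saline and the median was -0.0229. Of the 52 others, 36 lay above and the median was 0.0851. Among all 115, 3 were called higher and 4 lower, against 6.81% of all probe sets called (2.58% higher and 4.22% lower), and the 3 higher were the Kcna probe sets.

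Kcnd2, which encodes the Kv4 channel of dendritic A-type current, showed such a split without a call. Its probe set 1422834_at read 6.73, 6.66 and 6.78 under saline and 8.27, 7.25 and 7.29 under ethanol in control mice, and 6.75, 6.25 and 6.21 and 6.98, 6.75 and 6.55 in Fyn-null mice. The treatments were apart in control mice, where replicate 1 stood above the other ethanol pools, and overlapped in Fyn-null mice. The difference over both genotypes was 0.62 (limma adjusted p = 0.0522), and 0.64 with the 3' to 5' covariate (limma adjusted p = 0.59), against -0.02 on the brightest probe set. The Kcnip genes, of calcium-binding Kv4 partners, ran from -0.16 for Kcnip2 to 0.14 for Kcnip1, and Kcnab3, a cytoplasmic Kv1 partner, differed by 0.25 (limma adjusted p = 0.168). The 3 Kcnc genes, whose channels serve fast-spiking neurons, all lay below saline, Kcnc1 by -0.17 and Kcnc4 by -0.15 (limma adjusted p = 0.228), with none called. Kcnd1, of another Kv4 channel, differed by -0.08 (limma adjusted p = 0.659).

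Among the other modulatory subunits, none of 6 Kcnf, Kcng and Kcns genes was called, where 6.69% of all genes were. Kcng2 read 6.12, 6.25 and 6.25 under saline and 6.32, 6.34 and 6.47 under ethanol in control mice, and 6.22, 6.00 and 6.30 and 6.30, 6.46 and 6.44 in Fyn-null mice, a difference of 0.20 (limma adjusted p = 0.079). With Kcnv1 and Kcnq1ot1 it was 1 of the 3 genes whose treatments did not overlap, or 4.76% against 4.55% of all genes, by less than 0.01 at its nearest pools. Kcng1 differed by -0.30 (limma adjusted p = 0.155), Kcns2 by 0.18 (limma adjusted p = 0.174) and Kcnf1 by -0.02. Of the Kcnh and Kcnq genes, of ether-a-go-go and M-type channels, none was called, and Kcnh3 was lowest at -0.18 (limma adjusted p = 0.111) while Kcnq5 differed by -0.04 (limma adjusted p = 0.84). Kcne4, of a single-pass accessory subunit, differed by 0.03 (limma adjusted p = 0.764), and Kcnu1, of the sperm channel Slo3, by -0.03 (limma adjusted p = 0.826).

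Among known targets of ethanol, the calcium-activated channel gene Kcnma1 read 8.71, 8.69 and 8.77 under saline and 8.72, 8.91 and 8.85 under ethanol in control mice, and 8.83, 8.34 and 8.48 and 9.03, 8.94 and 9.05 in Fyn-null mice, on 1425987_a_at. The treatments were apart in Fyn-null mice and overlapped in control mice. The difference was 0.46 (SE 0.11, limma adjusted p = 0.121) in Fyn-null mice and 0.10 in control mice, and 0.28 over both (limma adjusted p = 0.079). Without Fyn-null saline replicate 2 it was called in Fyn-null mice (limma adjusted p = 0.0207), while another probe set, 1428948_at, lay on the other side at -0.38 (limma adjusted p = 0.0548). Of its accessory subunits, Kcnmb2 differed by 0.28 (limma adjusted p = 0.0617) and Kcnmb4 by -0.03. The 3 Kcnn genes, of small- and intermediate-conductance channels, ran from 0.06 to 0.10, the highest being Kcnn1 (limma adjusted p = 0.36).

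Of the 10 Kcnj genes 8 lay below saline, with none called, the lowest being Kcnj9 at -0.24 and Kcnj8, the pore of the vascular ATP-sensitive channel, at -0.17 (limma adjusted p = 0.327). The 9 Kcnk genes ran from -0.10 to 0.16. Vessel markers moved with ethanol, with 1 of 7 endothelial and pericyte genes called higher and 4 lower, or 71.4% against 6.69% of all genes. Slc2a1 was higher by 0.71, and Tek (-0.92), Cldn5 (-0.64), Flt1 (-0.41) and Rgs5 (-0.33) were lower. Their mean level ran from 7.65 to 7.76 in control saline, 7.28 to 7.42 in control ethanol, 7.59 to 7.79 in Fyn-null saline and 7.42 to 7.66 in Fyn-null ethanol. With the 3' to 5' covariate Slc2a1 alone of the 5 was still called, at 0.82 (limma adjusted p = 0.039). In the other lists 1 marker was called in each of the pyramidal neuron (Neurod2, 0.29), oligodendrocyte (Mal, 0.53), microglia (Aif1, -0.44) and striatum (Ppp1r1b, 0.21) lists, and none in the interneuron, astrocyte and oligodendrocyte precursor lists. The part of these cell types in the values of the potassium channel genes was not tested.

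Proteins that partner potassium channels or move potassium were read from a list of 44 genes, of which 34 were tested. Of these 2.94% were called and 73.5% lay below saline, against 6.69% and 62.5% of all genes. The 1 called was Slc12a2, the sodium-potassium-chloride importer, which fell by 0.27 (limma adjusted p = 0.0155) and with the 3' to 5' covariate stood at -0.22 (limma adjusted p = 0.532). Of the list 9 lay above and 25 below saline, with a median of -0.0562 against -0.0376 over all genes. Abcc8, the sulfonylurea receptor of ATP-sensitive channels, differed by -0.18 (limma adjusted p = 0.125).

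Within control mice 8 of 63 genes had an unadjusted p under 0.05 (12.7% against 18% of all genes), and 13 did not overlap (20.6% against 24.7%). Within Fyn-null mice there were 10 (15.9% against 11.8%), and 13 did not overlap (20.6% against 18.5%). After Kcnv1, the smallest p in control mice belonged to Kcnq1ot1 at -0.44 (limma adjusted p = 0.0578) and Kcnj9 at -0.44 (limma adjusted p = 0.0597), and in Fyn-null mice to Kcnma1 and to Kcnk6, a leak channel gene, at 0.30 (limma adjusted p = 0.201).

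The difference between genotypes in the ethanol response asked whether lack of Fyn alters the response of channel genes. None of 63 genes was called (0% of all genes), and 4 had an unadjusted p under 0.05 (6.35% against 3.85% of all genes), all with the higher response in Fyn-null mice. These were Kcnj9 at 0.40 (95% interval 0.08 to 0.72), Kcnma1 at 0.36 (0.01 to 0.70), Kcnt2, of a sodium-activated channel, at 0.35 (0.02 to 0.68) and Kcnk6 at 0.27 (0.00 to 0.54), each with a limma adjusted p of 0.992. Leaving out 1 pool gave counts from 1 to 6, the highest without Fyn-null saline replicate 2, and 1 without any of control saline replicates 2 and 3, control ethanol replicate 4, Fyn-null saline replicate 3 and Fyn-null ethanol replicate 1. For Kcnj9 the sign depended on the probe set, since 1450712_at differed by 0.64 in control and -0.36 in Fyn-null mice, and averaging its probe sets gave -0.26. The median over the 63 genes was 0.0641 against 0.0405 over all genes. Across the 63 genes the responses in the genotypes, which share no pools but were normalized together, had r = 0.66 and rho = 0.44, and r = 0.46 without Kcnv1. Of these genes 39 lay on the same side of saline in both genotypes, or 61.9% against 66.3% of all genes.

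**Figure D4:**
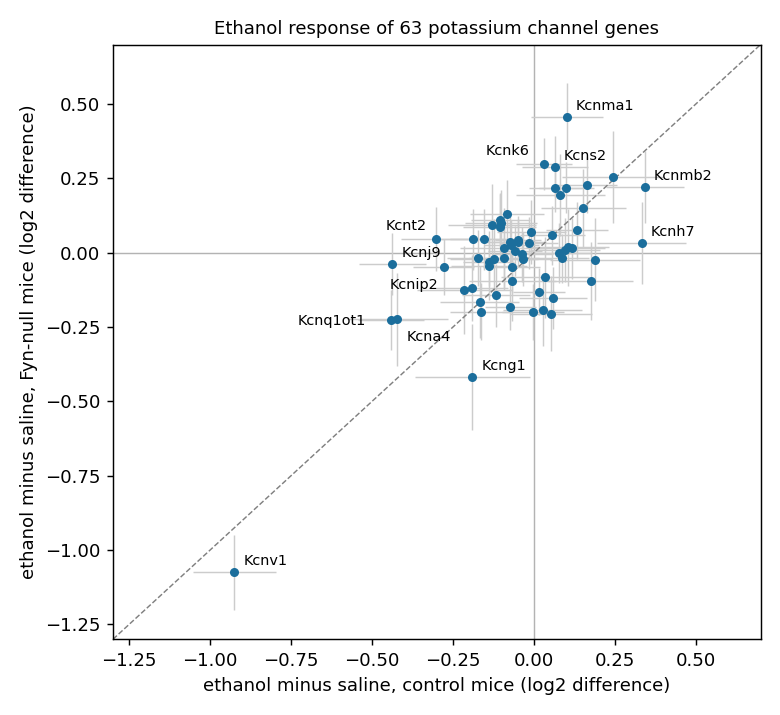
Log2 difference of ethanol minus saline in control mice (horizontal axis) and Fyn-null mice (vertical axis) for the 63 genes tested, with SE as grey bars and the line of equal response dashed. Kcnv1 lies apart at -0.93 and -1.08.

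Fyn-null and control mice were compared under saline, under ethanol and over both treatments to find channel genes that differ by genotype. In the fit described above, with all pools and equal weights, no member was called, and neither was any other gene (0%). Under ethanol, array weights on the same 12 pools called 1383 of all probe sets, and a fit of the ethanol pools alone called 193. With the weights, Kcnj9 was called on opposite sides, 1428602_at at 0.40 (limma adjusted p = 0.0319) and 1450712_at at -1.42 (limma adjusted p = 0.0262). Also called were Kcnd2 1422834_at at -0.90, Kcnc1 1423559_at at -0.84, Kcna2 1422197_at at -0.58 and Kcnq3 1458421_at at 0.37. Under saline 2 of 63 genes had an unadjusted p under 0.05 (3.17% against 1.49% of all genes), against 5 without the pools in doubt and 0 (without control ethanol replicate 2) to 4 (without Fyn-null saline replicate 4) leaving out 1 pool. Kcnip4, of a Kv4 partner, read 9.27, 9.24 and 9.28 in control and 9.06, 9.07 and 8.90 in Fyn-null pools, without overlap, a difference of -0.25 (limma adjusted p = 1). Kcns3, of a modulatory subunit, differed by 0.17 (limma adjusted p = 1). Groups did not overlap for 5 genes (7.94% against 5.29% of all genes).

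Under ethanol every pool matched its label on the brighter Fyn probe set. There 8 genes had an unadjusted p under 0.05 (12.7% against 12.9% of all genes), 7 of them higher in Fyn-null mice. Groups did not overlap for 19 genes (30.2% against 20.9%), 16 of them higher in Fyn-null mice. All genes leaned to the same side, with a median of 0.0444 against 0.0421 over the 63 genes. The 2 counts by direction were not taken over all genes. The lean also depended on the probe set. Of the 63 that stood for their gene, 41 lay higher in Fyn-null mice and 22 lower. Of the 52 other member probe sets, 18 lay higher and 34 lower, with a median of -0.0726. Kcnj10, of the astrocyte channel that clears potassium, read 8.77, 8.33 and 8.31 in control and 8.19, 8.02 and 8.13 in Fyn-null pools, a difference of -0.36 (limma adjusted p = 0.23). Every control pool lay above every Fyn-null pool, and without control ethanol replicate 1, at 8.77, the difference was -0.21. Kcns2 differed by 0.29 (limma adjusted p = 0.244). Wider differences stood on probe sets other than the brightest. They were -0.84 for 1422834_at of Kcnd2 (limma adjusted p = 0.171) and -0.77 for 1423559_at of Kcnc1 (limma adjusted p = 0.246), neither called with equal weights. Without control ethanol replicate 1 they were -0.51 and -0.49.

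Kcnj9, of a G protein-gated inward rectifier subunit, gave the widest genotype difference, and its probe sets disagreed on direction. The brightest, 1428602_at, read 7.68, 7.84 and 7.72 in control ethanol and 8.21, 8.19 and 8.16 in Fyn-null ethanol pools. All Fyn-null pools were higher, by 0.44 (SE 0.10, limma adjusted p = 0.132). Under saline it read 8.09, 8.23 and 8.24 and 8.18, 8.46 and 8.04, which overlapped.

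A second Kcnj9 probe set, 1450712_at, ran the other way. Under ethanol it read 8.80, 8.78 and 8.52 in control and 7.44, 6.95 and 7.31 in Fyn-null pools, without overlap, a difference of -1.46 (SE 0.39, limma adjusted p = 0.164). Under saline control pools read 8.45, 7.05 and 8.67 and Fyn-null pools 7.09, 7.28 and 8.43. The low control pool and the high Fyn-null pool were the pair whose signal on the brighter Fyn probe set went against their labels. Without them, and so with each saline group a pool short, the difference was -1.38 under saline (limma adjusted p = 0.0134). It was -1.46 under ethanol (limma adjusted p = 0.00153) and -1.43 over both (SE 0.10, limma adjusted p = 5.12e-05). Fitted to the ethanol pools alone it was called as well (limma adjusted p = 0.00357).

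The dimmer 1426115_a_at read 5.59, 4.82 and 5.06 in control and 4.80, 4.73 and 5.69 in Fyn-null saline pools, and 5.67, 5.64 and 5.82 and 5.34, 5.20 and 5.27 under ethanol. The same pair of pools again lay with the other genotype. Its difference over both treatments was -0.26 (limma adjusted p = 0.597), and -0.48 without that pair (limma adjusted p = 0.019). The fourth probe set, 1433029_at, differed by -0.10 under ethanol. No direction for the gene can be stated from these values.

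**Figure D5:**
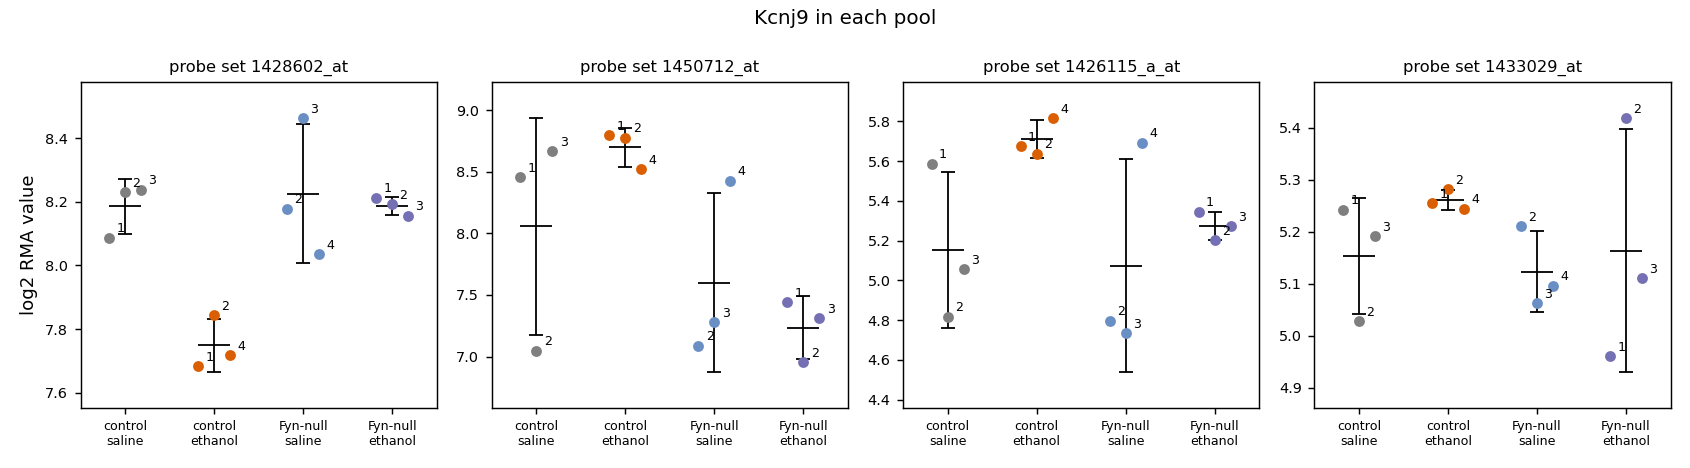
Log2 RMA values of the 4 Kcnj9 probe sets in each pool (points, numbered by replicate) by group, with the mean (bar) and SD (whiskers, n = 3). On 1450712_at the pool labelled control saline replicate 2, at 7.05, lies among the Fyn-null pools, while Fyn-null saline replicate 4, at 8.43, lies just below the other control pools.

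Over both treatments 8 of 63 genes had an unadjusted p under 0.05 (12.7% against 9.89% of all genes), 4 of them from the 10 Kcnj genes tested. Kcnt1, of a sodium-activated channel, read 8.08, 8.08 and 8.10 under saline and 7.96, 8.09 and 8.06 under ethanol in control mice, and 8.25, 8.22 and 8.11 and 8.21, 8.27 and 8.25 in Fyn-null mice. It was the 1 gene of 63 whose genotypes did not overlap (1.59% against 0.325% of all genes), and its difference was 0.16 (SE 0.05, limma adjusted p = 0.336). Kcnj13, of an inward rectifier of epithelia, differed by 0.20 (limma adjusted p = 0.331).

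Without the pools in doubt 2 of the 63 genes were called over both treatments, among 669 of all probe sets. Kcnj6, of another G protein-gated subunit, read 5.42, 6.01 and 5.54 under saline and 5.46, 5.70 and 5.61 under ethanol in control mice, and 5.90, 6.01 and 5.93 and 5.94, 5.90 and 5.71 in Fyn-null mice. The control pool at 6.01 was in doubt, and the other control pools, from 5.42 to 5.70, lay below the lowest Fyn-null pool at 5.71. The other pool in doubt, Fyn-null saline replicate 4, read 5.93, within the range of the other Fyn-null pools. Its difference was 0.35 without the pair (limma adjusted p = 0.0399) and 0.28 (limma adjusted p = 0.344) with all pools. Kcng1 read 6.79, 6.56 and 7.07 and 6.52, 6.60 and 6.73 in control mice, and 6.36, 6.60 and 7.17 and 6.39, 6.29 and 6.20 in Fyn-null mice. It differed by -0.37 without the pair (limma adjusted p = 0.0335) and -0.21 with all pools.

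The study named potassium channel genes from these same samples, so their values here are not independent evidence. It used S-scores with its own thresholds, and for Kcna2, Kcnd2, Kcnj9 and Kcnma1 also correlations in separate panels of recombinant inbred mice. It also reported potassium channel categories as over-represented between genotypes in this region. From its basal list 9 genes were tested on the brightest probe set, and none was called between genotypes under saline. Differences ran from -0.14 to 0.04 for Kcna2, Kcnab2, Kcnd2, Kcnd3, Kcnip2, Kcnip3, Kcnj3, Kcnj9 and Kcnj11. With probe sets averaged, the sign turned for Kcnj9 at -0.13, Kcnd2 at -0.11 and Kcnd3 at 4e-04. Without the pools in doubt, 1450712_at of Kcnj9 was called at -1.38 (limma adjusted p = 0.0134). Its second list concerned ethanol regulation in relation to genotype, and 4 of its genes were tested on the brightest probe set. On that probe set the response was higher in Fyn-null mice for all 4, with 2 at an unadjusted p under 0.05 and none called. The differences of response were 0.40 for Kcnj9, 0.36 for Kcnma1, 0.12 for Kcna1 and 0.03 for Kcnd2. In control and Fyn-null mice respectively the ethanol differences were -0.44 and -0.04 for Kcnj9, 0.10 and 0.46 for Kcnma1, 0.10 and 0.22 for Kcna1, and -0.04 and 0.00 for Kcnd2. With the probe sets of a gene averaged, the order turned for Kcnj9 and Kcnd2. Kcnj9 then had a difference of response of -0.26, and Kcnd2 rose by 0.47 in control and 0.16 in Fyn-null mice.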

How the data were processed

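RNA of medial prefrontal cortex was measured on 12 Affymetrix arrays. The authors deposited log2 values of 1 table, made with affy and RMA per the labels (background correction, quantile normalization and summarization of probes). The tool versions are not given in the sources used by this work. The methods' S-scores need probe-level signals, which were not used here. Quantile normalization hides a shift common to all genes.

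Groups came from the labels. Control probe sets (64) and the dimmest 45% by mean were dropped, keeping 24770 probe sets, and all 167 member probe sets matched a RefSeq gene ID. Linear models were fitted with limma 3.58.1 in R 4.3.3 to all kept probe sets on all 12 arrays, by group means for 5 comparisons and additively for the 2 over both genotypes or treatments, with Benjamini-Hochberg adjustment over all kept probe sets. The fit was tested on simulated data. No source says that pools came from separate litters or days, so p-values measure the spread between pools, part of which may be technical. Members and lists were chosen with earlier results of these data known. The text names members called in any comparison, the 3 with the smallest p in each, those the study listed, at least 1 of each subfamily (the smallest p for ethanol over both genotypes) and all tested probe sets of a gene named for a call. Kcna5, Kcnc1, Kcng1, Kcnj8, Kcnmb4, Kcnq1, Kcnq3 and the other probe sets of Kcnj9, Kcnd2 and Kcnma1 were named after their values were seen. The alternatives were the filter (none, 60%), further quantile normalization, the mean of a gene's probe sets, the replicate block, trended and weighted fits, the 3' to 5' covariate, the compared groups alone, and leaving out pools. The covariate without the filter, for Kcna5, was chosen after seeing the data.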

Additional observations from a re-analysis of the deposited data

Results flagged for a closer look

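Kcnq3, of a subunit of the M-type channel that restrains repetitive firing, moved in opposite directions with ethanol in the genotypes on probe set 1458421_at. Control pools read 6.20, 6.41 and 6.08 under saline and 5.94, 5.95 and 5.86 under ethanol, all lower. Fyn-null pools read 6.19, 6.16 and 6.18 under saline and 6.29, 6.24 and 6.30 under ethanol, all higher. The responses differed by 0.41 (95% interval 0.15 to 0.68), which did not pass adjustment over all probe sets (limma adjusted p = 0.992). This probe set was found by searching the 115 member probe sets for opposite shifts without overlap. How many of all probe sets show such shifts was not counted. The brighter Kcnq3 probe set, 1435957_at, differed by -0.10 in control and 0.11 in Fyn-null mice.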

How the results depend on the processing

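The count of member genes called changed with some settings, and the cause was not tested. For ethanol in control mice, 1 gene was called, against 2 with no filter, 3 with a trended robust fit, and 0 with the replicate block, the 3' to 5' covariate or the compared groups alone. In Fyn-null mice it was 1, against 2 with no filter, 5 with array weights, and 0 with the replicate block or the covariate. Over both genotypes it was 2, against 1 with the block and 1 with the covariate, Kcnv1 in each, and 3 with no filter, array weights, further quantile normalization or probe sets averaged, the last of which called Kcna6, Kcnmb2 and Kcnv1 but not Kcnq1ot1. Between genotypes, where none was called, there was 1 under ethanol with array weights and there were 2 over both treatments without both pools in doubt. On the probe set that stood for its gene, no member was called between genotypes under saline, or for the difference of responses, in the settings run, whereas without both pools in doubt 1450712_at of Kcnj9 was called under saline. Leaving out 1 pool at a time gave 1 to 3 calls in control mice (3 without Fyn-null saline replicate 3, 2 without Fyn-null saline replicate 4), 1 to 2 in Fyn-null mice (2 without Fyn-null saline replicate 2) and 1 to 3 over both genotypes (1 without control saline replicate 3, 3 without Fyn-null saline replicate 4). Of all probe sets, 1686 were called over both genotypes, against 710 with the block, 27 with the covariate and 770 to 1625 leaving out 1 pool. In control mice it was 355, against 36, 16 and 76 to 410, and 18 with the compared groups alone. In Fyn-null mice it was 99, against 26, 15 and 33 to 145, and 1371 with array weights. Between genotypes, where it was 0, 1383 were called under ethanol with array weights and 193 with the compared groups alone, and without both pools in doubt 260 under ethanol, 44 under saline and 669 over both treatments. Array weights were estimated gene by gene because the default estimate did not converge. Pools of the same number did not deviate together, with correlations of -0.43 to 0.32, 3 of 13 over 0.1, and 2 of 12 arrays closest to their own number, so the block is given here only. Averaging the probe sets within each gene, the sign turned for ethanol in control mice Kcnj9 1428602_at at 0.22, Kcnma1 at -0.0244, Kcnd2 1422835_at at 0.47, for the difference of responses Kcnj9 1428602_at at -0.26, under ethanol between genotypes Kcnj9 1428602_at at -0.39, for ethanol over both genotypes Kcnd1 at 0.011, Kcnj9 1428602_at at 0.088, Kcnq5 at 0.15, under saline between genotypes Kcnj9 1428602_at at -0.13, Kcnd2 1422835_at at -0.11, Kcnd3 at 4e-04, for ethanol in Fyn-null mice Kcnd2 1422835_at at 0.16, between genotypes over both treatments Kcnj9 1428602_at at -0.26. With the 3' to 5' covariate, the sign turned for ethanol over both genotypes Kcna4 at 0.0051, Kcnab3 at -0.0194, Kcnc4 at 0.0355, Kcne4 at -0.10, Kcnf1 at 0.25, Kcnq5 at 0.0182, under saline between genotypes Kcnj3 at 0.009, for ethanol in Fyn-null mice Kcnj9 1428602_at at 0.0569, Kcnd2 1422835_at at 0.0201. With further quantile normalization, the sign turned for ethanol over both genotypes Kcnf1 at 0.0077, under saline between genotypes Kcnj3 at 0.0154, for ethanol in control mice Kcnd2 1422835_at at 0.0065, for ethanol in Fyn-null mice Kcnd2 1422835_at at 0.002. With the replicate block, the sign turned under saline between genotypes Kcnab2 at 0.0395, Kcnj3 at 0.0651. Without both pools in doubt, the sign turned under saline between genotypes Kcnab2 at 0.0029, Kcnj3 at 0.0304. Leaving out 1 pool at a time, the sign turned for ethanol over both genotypes Kcnf1 (-0.0937 to 0.0404), Kcnq5 (-0.0949 to 0.0119), Kcnu1 (-0.0641 to 0.0102), under saline between genotypes Kcnj11 (-0.049 to 0.0973), Kcnj9 1428602_at (-0.0786 to 0.14), Kcnj3 (-0.11 to 0.0743), Kcnd2 1422835_at (-0.047 to 0.13), Kcnd3 (-0.0994 to 0.0436), Kcnip2 (-0.15 to 0.0013), for ethanol in control mice Kcnd2 1422835_at (-0.0746 to 8e-04), for ethanol in Fyn-null mice Kcnj9 1428602_at (-0.13 to 0.0804), Kcnd2 1422835_at (-0.0992 to 0.0742), under ethanol between genotypes Kcnj9 1433029_at (-0.22 to 0.0043). The precision is limited by 3 pools a group.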
